A study of Mus musculus with 2 samples.

Results

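The expression of 10 genes that build, supply or control MHC class I molecules was followed across the cell types of the mouse spleen by single-cell RNA sequencing. These were B2m, H2-K1, H2-D1, Tap1, Tap2, Tapbp, Psmb8, Psmb9, Erap1 and Nlrc5, which were taken by name from the 27032 gene columns of the tables, not by a threshold on their values. The series holds 2 samples of 1 group, CD11c+ spleen cells of wild-type mice. The methods give them as adult, of either sex and on a C57BL/6J background. The cells were enriched with CD11c beads, tagged by sample and captured with BD Rhapsody, a microwell system in which each cell's mRNA is counted by unique molecular identifiers (UMIs). How many mice each sample holds was not given in the sources used here, so the tests measure the spread between these 2 samples, which may be technical.  With a single condition, the design allowed comparisons between cell types within the spleen.

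The samples held 3308 and 3085 cells, with 46953398 and 43137746 UMIs and no barcode in common. Cells were assigned by UMIs of marker genes, none of them a class I processing gene, to the first class whose rule they met. Macrophages needed 20 Vcam1 and 5 C1qb UMIs, mature dendritic cells (DCs) 2 Ccr7 and 1 Fscn1, type 1 conventional DCs (cDC1s) 2 Clec9a and 1 Xcr1, plasmacytoid DCs (pDCs) 3 Siglech and 1 Ccr9, B cells 3 Cd79a, T cells 2 Cd3e, NK cells 1 Ncr1, DCIR2 cDC2s 2 Clec4a4, and CLEC10A cDC2s 2 UMIs over Clec10a and Cd209a. This placed 4922 of 6393 cells. There were 797 and 710 cDC1s in the first and second sample, 565 and 466 DCIR2 cDC2s, 494 and 416 CLEC10A cDC2s, 147 and 187 mature DCs, 358 and 161 macrophages, 74 and 201 B cells, 50 and 187 T cells, 39 and 36 NK cells and 14 and 20 pDCs. No doublet caller was run, and 663 cells met more than 1 rule. Of the pDCs, only 4 and 7 met no other rule, so values of that class are the least firm. Markers outside the rules were highest in their own class for 8 of 8 macrophage, 6 of 6 mature DC, 5 of 7 cDC1, 5 of 7 pDC, 6 of 6 B, 6 of 6 T and 6 of 6 NK genes, but for only 1 of 5 DCIR2 cDC2 and 1 of 6 CLEC10A cDC2 genes. The cDC2 names are therefore names of the rule.

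MHC class I molecules show peptides from inside the cell to CD8+ T cells. The peptides are cut by the proteasome, whose interferon-inducible subunits Psmb8 and Psmb9 replace the constitutive Psmb5 and Psmb6, and are pumped into the endoplasmic reticulum by the transporter made of Tap1 and Tap2. There the peptidase Erap1 trims them, tapasin (Tapbp) holds the empty class I molecule at the transporter, and the heavy chain, H2-K1 or H2-D1, is displayed at the surface with the light chain B2m. Nlrc5 is the transactivator of class I genes, as Ciita is for class II. Among DCs, cDC1s are known for presenting antigen taken up from other cells on class I, and DC maturation is known to raise antigen display.

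On GRCm38, 7 of the 10 genes lie on chromosome 17, in or next to the major histocompatibility complex. In GENCODE M21 these were H2-K1 on chromosome 17 at 33996017 to 34000347, Tapbp on chromosome 17 at 33915899 to 33929292, Psmb9 on chromosome 17 at 34181987 to 34187764, Tap1 on chromosome 17 at 34187553 to 34197225, Psmb8 on chromosome 17 at 34197721 to 34201454, Tap2 on chromosome 17 at 34203527 to 34216321 and H2-D1 on chromosome 17 at 35262730 to 35267499. The others were B2m on chromosome 2 at 122147686 to 122153083, Erap1 on chromosome 13 at 74639568 to 74693201 and Nlrc5 on chromosome 8 at 94434356 to 94527272. Psmb9 and Tap1 lie head to head on opposite strands, with RefSeq start sites 225 bases apart and gene models that overlap. Overlap with some other gene model was annotated for 8 of the 10. How the pipeline assigned reads to overlapping models was not given in the sources used here, and H2-K1 and H2-D1 are closely similar in sequence, so the split of reads between them is uncertain.

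The promoters of H2-K1 and B2m are shown because heavy and light chain must be made together and the level of each is compared between classes throughout. Both stretches are RefSeq sequence of GRCm38.p6 upstream of the first annotated exon, printed 5′ to 3′ in the direction of transcription. Capitals mark matches, on either strand, to GAANNGAAA (a site for interferon regulatory factors), GGGATTCCC (a kappa B site, bound by NF-kappa B), TGACG (the core of a cyclic AMP response element, as found in the X box of class I promoters) and CCAAT (bound by NF-Y). The H2-K1 stretch is chr17:34000348-34000597, minus strand, and the B2m stretch is chr2:122147437-122147685, plus strand.
H2-K1: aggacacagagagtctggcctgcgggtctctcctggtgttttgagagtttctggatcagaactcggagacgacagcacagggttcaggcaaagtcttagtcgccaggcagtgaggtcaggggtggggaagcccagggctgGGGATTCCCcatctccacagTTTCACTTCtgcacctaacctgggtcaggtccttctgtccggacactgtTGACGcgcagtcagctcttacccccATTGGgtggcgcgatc
B2m: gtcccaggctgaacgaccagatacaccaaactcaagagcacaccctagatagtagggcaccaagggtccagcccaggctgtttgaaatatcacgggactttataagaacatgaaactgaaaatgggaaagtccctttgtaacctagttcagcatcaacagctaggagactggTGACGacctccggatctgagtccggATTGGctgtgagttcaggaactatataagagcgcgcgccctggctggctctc

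The H2-K1 stretch held 1 match to each of the 4 motifs, and the B2m stretch held TGACG and CCAAT. Only these exact strings were searched. The B2m stretch also reads gaaactgaaa, where GAA and GAAA are spaced wider than in GAANNGAAA, and gggaaagtccc, which resembles GGGATTCCC. Neither is marked or counted here. In both, the TGACG match lay upstream of the CCAAT match, which ended 11 bases before the end of the H2-K1 stretch and 47 bases before that of B2m. Over windows of 300 bases around RefSeq starts, 8 of the 10 genes had an entry. GAANNGAAA was found for H2-K1 and H2-D1 and in 7.52% of all windows, GGGATTCCC for the same pair and in 0.353%, TGACG for 5 genes and in 20.8%, and CCAAT for 6 genes and in 37.4%. These matches describe letters in a window and are not evidence of binding, and a missing match is not evidence that a site is absent.

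Levels were taken as UMIs summed over the cells of a class in a sample, as CPM (UMIs per 1000000 UMIs of the sum) scaled by the trimmed mean of M values (TMM), which divides out a common shift between sums. They are compared between classes for 1 gene, never between genes. All 10 genes passed the low-count filter and all 10 differed among the 9 classes, edgeR adjusted p = 0.021 at most, although 77.3% of the 12216 genes tested did so too. With cells thinned to 2000 UMIs, 9 of the 10 passed. Nlrc5 and Psmb9 varied most, with means 6.62 and 7.32 times higher in the highest than in the lowest class (4.60 for Psmb9 without the pDCs). Erap1 varied least, by 1.58 times. The other 7 genes spanned 2.03 to 3.17 times. Mature DCs had the highest mean of B2m, H2-K1, H2-D1, Tapbp and Nlrc5, and cDC1s the highest mean of Psmb8, Psmb9, Tap1 and Tap2, with mature DCs next. Erap1 was highest in NK cells.

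**Figure D1:**
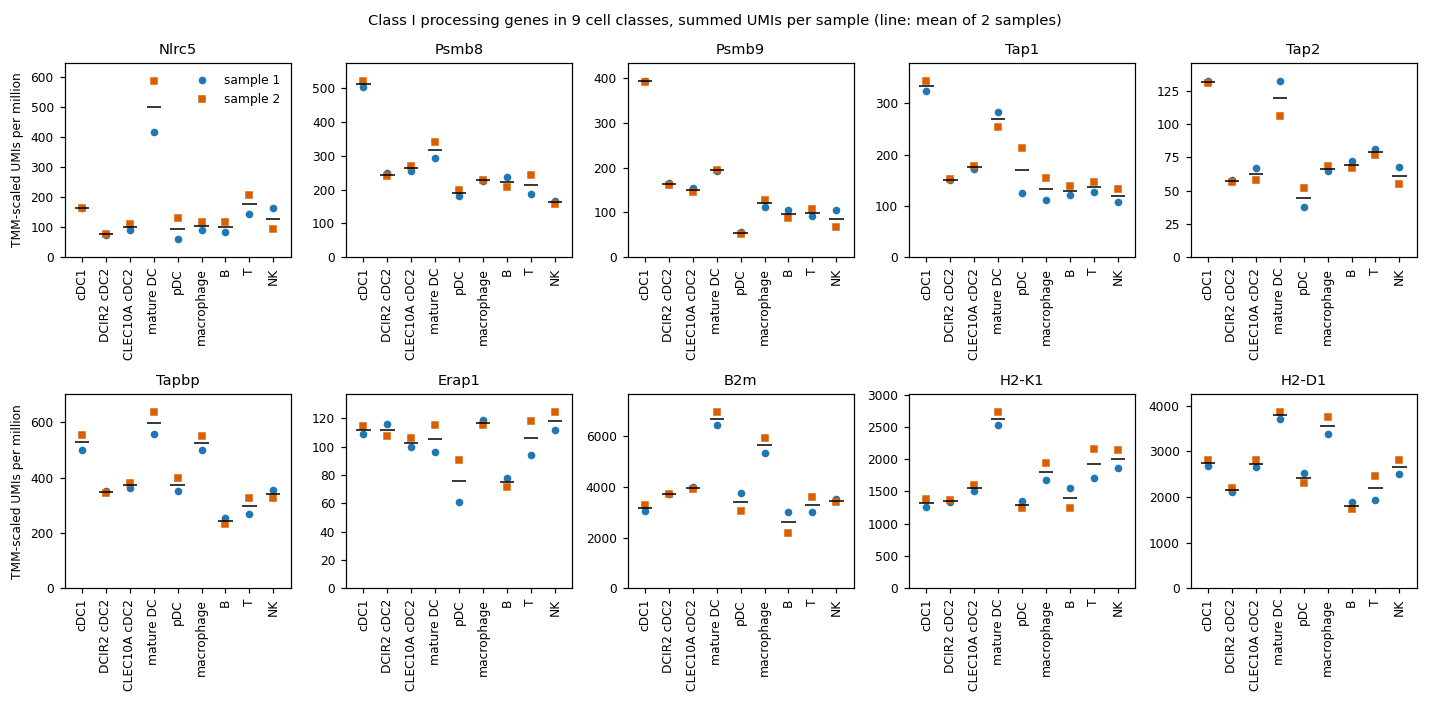
Level of each of the 10 genes (vertical axis, TMM-scaled CPM, from 0) in the 9 cell classes (horizontal axis). Points are the 2 samples and lines their means: cDC1s stand above every other class for Psmb8 and Psmb9, mature DCs for Nlrc5, B2m and H2-K1, and Erap1 spans 74.7 to 118 in its class means.

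Along the order of class means, most neighbouring classes did not pass the test, although the samples of some of these pairs did not overlap. Of the 8 neighbouring pairs of each gene 2 passed for Psmb9, none for Erap1 and 1 for each of the others. Neighbours were taken from the same means and lie close by that choice, so these counts do not say how alike the classes are. The share of all genes for such pairs was not taken. Mature DCs stood above the next class for Nlrc5, where T cells followed with a log2 difference of 1.45 (SE 0.23, edgeR adjusted p = 4.10e-05), and for H2-K1, where NK cells followed with 0.40 (SE 0.13, edgeR adjusted p = 0.0257). In B2m the step lay below the macrophages, 0.51 (SE 0.13, edgeR adjusted p = 0.00272) above CLEC10A cDC2s, and mature DCs were above macrophages by 0.25 (SE 0.13, edgeR adjusted p = 0.119), which did not pass. The H2-D1 step had the same place, 0.37 (SE 0.11, edgeR adjusted p = 0.00605) between macrophages and cDC1s. For Tapbp it lay between macrophages and pDCs, 0.47 (SE 0.14, edgeR adjusted p = 0.0147). The transporter genes broke after cDC1s and mature DCs, with 0.62 (SE 0.16, edgeR adjusted p = 0.00524) between mature DCs and CLEC10A cDC2s for Tap1 and 0.60 (SE 0.17, edgeR adjusted p = 0.00928) between mature DCs and T cells for Tap2. For the immunoproteasome genes cDC1s stood alone, 0.69 (SE 0.12, edgeR adjusted p = 0.000101) above mature DCs for Psmb8 and 1.02 (SE 0.13, edgeR adjusted p = 2.56e-06) for Psmb9. Without TMM the classes at the top were the same for all 10 genes, but the lowest class of H2-K1 became the cDC1s in place of the pDCs and that of Tap1 the macrophages in place of the NK cells.

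The first comparison set cDC1s against the mean of both cDC2 classes, since cDC1s are the DCs known for priming CD8+ T cells. Psmb8, Psmb9, Tap1, Tap2, Tapbp and Nlrc5 were higher in cDC1s, and B2m, H2-K1, H2-D1 and Erap1 did not pass the test. Of the 10 genes, 6 were higher and none lower, beside 18.7% of all 12216 genes higher and 18.2% lower. The median log2 fold change was 0.73 over the 10 genes and 0.01 over all genes.

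The immunoproteasome subunit Psmb9 stood at 395 and 393 CPM in the cDC1s of the first and second sample, against 165 and 162 in DCIR2 and 154 and 146 in CLEC10A cDC2s. The groups did not overlap, and the log2 fold change was 1.33 (SE 0.10, edgeR adjusted p = 2.12e-09). Psmb8, the other immunoproteasome subunit here, was at 505 and 522 in cDC1s and between 239 and 270.2 in the cDC2 sums, a log2 fold change of 1.02 (SE 0.10, edgeR adjusted p = 5.34e-08). Both chains of the peptide transporter were higher. Tap1 was at 324 and 344 in cDC1s, 151 and 152 in DCIR2 and 171 and 179 in CLEC10A cDC2s, with a log2 fold change of 1.04 (SE 0.12, edgeR adjusted p = 1.05e-06). Tap2 was at 132 and 131 in cDC1s, and its 4 cDC2 sums lay between 56.1 and 67.0, with a log2 fold change of 1.14 (SE 0.11, edgeR adjusted p = 4.81e-08). For tapasin, which ties the transporter to the heavy chain, the gene Tapbp was higher by 0.55 (SE 0.10, edgeR adjusted p = 0.000132) on the log2 scale. Nlrc5 was at 164 and 164 in cDC1s, 75.8 ± 1.70 in DCIR2 and 99.7 ± 15.1 (mean ± SD, n = 2) in CLEC10A cDC2s, without overlap, which gave 0.92 (SE 0.17, edgeR adjusted p = 0.000218).

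Neither the class I chains nor Erap1 passed the test. B2m was at 3034 and 3305 in cDC1s, below all 4 cDC2 sums, and its log2 difference was -0.28 (SE 0.11, edgeR adjusted p = 0.06). H2-K1 differed by -0.13 and H2-D1 by 0.18, and Erap1, which trims peptides, by 0.058. Scaled by total UMIs without TMM, the median of all genes moved to -0.13 and the split of all calls from 2285 higher and 2224 lower to 1679 and 2956. The 6 higher calls stayed under that scaling, and B2m (-0.42) and H2-K1 (-0.27) were then lower. The median depth was 20185 and 21782.5 UMIs per cell in cDC1s, 12169 and 12084 in DCIR2 and 10812 and 10517.5 in CLEC10A cDC2s. B2m was also lower with every cell thinned to 2000 UMIs (-0.27) and in cells that met exactly 1 rule (-0.27), and H2-D1 was higher in those cells (0.25) and without the filter on low counts (0.27). The 6 higher calls held in all of these settings.

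Other genes of the pathway, from a list of 55 of which 50 were tested, followed in part. In cDC1s 20 were higher and 8 lower. All 6 of the loading complex and chaperone genes were higher, among them Pdia3, the disulphide isomerase of the loading complex, by 1.33 (SE 0.10, edgeR adjusted p = 1.39e-09), and Hsp90b1, a chaperone of the endoplasmic reticulum, by 1.35. Psme1, an interferon-inducible activator of the proteasome, was higher by 1.04 (SE 0.09, edgeR adjusted p = 2.22e-08), whereas the immunoproteasome subunit Psmb10 was at 62.5 and 72.7 in cDC1s and between 69.7 and 78.0 in cDC2s. The genes with the largest differences upwards also held Irf8, a transcription factor on which cDC1s depend, at 5.66, Cd1d1, a lipid-presenting class I-like molecule, at 2.11, and the leucine aminopeptidase gene Lap3 at 1.53. Those downwards were H2-M2 at -2.34, H2-T24 at -1.74, both nonclassical class I genes, the interferon-inducible Isg15 at -1.74 and Nfkb1, a subunit of NF-kappa B, at -1.55.

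**Figure D2:**
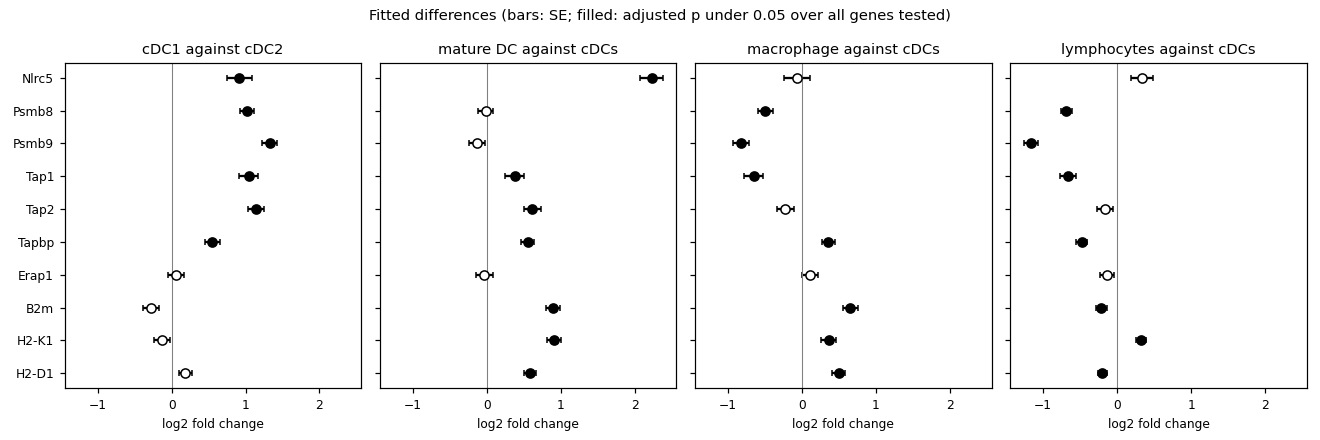
Fitted log2 fold changes (horizontal axis) of the 10 genes in 4 comparisons between cell classes, with SE bars; filled points passed edgeR's test at an adjusted p of 0.05. Psmb8, Psmb9, Tap1 and Tap2 lie to the right in cDC1s, Nlrc5 reaches 2.23 in mature DCs, and macrophages have B2m, H2-D1, H2-K1 and Tapbp above 0 and Psmb8, Psmb9 and Tap1 below.

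Mature DCs, the CCR7+ cells that migrate to T cells, were set against the mean of the 3 cDC classes. Nlrc5, B2m, H2-K1, H2-D1, Tap1, Tap2 and Tapbp were higher, and Psmb8, Psmb9 and Erap1 did not pass the test. Of the 10 genes, 7 were higher and none lower, beside 16.8% and 17.2% of all genes. The median log2 fold change was 0.57 over the 10 genes and -0.08 over all genes. These comparisons share the cDC sums with the one above, so they are not independent of it.

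Nlrc5 had the largest difference of the 10 genes, and it was at 416 and 588 CPM in mature DCs against 74.6 to 164 in the 6 cDC sums. The log2 fold change was 2.23 (SE 0.15, edgeR adjusted p = 7.13e-10), and in both samples mature DCs lay above every other class. B2m was at 6439 and 6973 in mature DCs and at 3034 to 4001 in cDCs, with a log2 fold change of 0.90 (SE 0.10, edgeR adjusted p = 6.83e-07). Both heavy chain genes were higher too. H2-K1 was at 2523 and 2732 against 1263 to 1600.2 in cDCs, with 0.90 (SE 0.10, edgeR adjusted p = 3.54e-07), and H2-D1 at 3710.1 and 3866 against 2099.6 to 2817, with 0.59 (SE 0.08, edgeR adjusted p = 1.74e-05). None of these groups overlapped.

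The loading genes had smaller differences. Tap2 was higher by 0.62 (SE 0.12, edgeR adjusted p = 0.000357) on the log2 scale, Tapbp by 0.55 (SE 0.09, edgeR adjusted p = 0.000119) and Tap1 by 0.38 (SE 0.13, edgeR adjusted p = 0.0256). This stood against the mean of 3 classes, and against cDC1s alone the Tap1 and Tap2 levels of mature DCs were lower by 0.32 (SE 0.15, edgeR adjusted p = 0.104) and 0.15 (SE 0.14, edgeR adjusted p = 0.421), which did not pass. Psmb8 was at 294 and 339.6 and Psmb9 at 193 and 195 in mature DCs, between the levels of cDC2s and cDC1s, and their log2 differences were -0.015 and -0.13. Erap1 differed by -0.034. The Tap1 call was lost without the filter on low counts, at 0.24 (edgeR adjusted p = 0.194).

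Of the other pathway genes, 13 of 50 were higher and 10 lower in mature DCs. The nonclassical and other class I genes had 6 of 11 higher and 1 lower. H2-M2 was at 599 and 577 CPM in mature DCs and at most 111 in any cDC sum, a log2 fold change of 4.40 (SE 0.31, edgeR adjusted p = 8.35e-10). Cd1d1 differed by 1.72, and H2-Q6 by 1.53, and H2-Q7 was at 456 and 558 against 153 to 215 in cDCs, where H2-Q6 and H2-Q7 are near-identical genes whose reads may be split. Psme2, the partner of Psme1, was higher by 1.40 (SE 0.12, edgeR adjusted p = 3.07e-08), Tapbpl, a tapasin-like peptide editor, by 1.35 (SE 0.16, edgeR adjusted p = 1.04e-06), and Irf1, an interferon-induced transcription factor, by 1.32 (SE 0.16, edgeR adjusted p = 1.93e-06). Downwards were H2-T24 at -1.61, Lap3 at -1.31 and the chaperone Hspa5 at -0.64, and Hsp90b1 was at 291 and 352 against 433 to 1231 in cDCs.

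Macrophages are the other antigen-presenting cells here. Against the mean of the 3 cDC classes 4 genes were higher and 3 lower, beside 28.8% and 26.3% of all genes. These are close to the shares of all genes, and the medians were 0.02 and -0.01, so the counts say nothing of the 10 genes as a group. B2m, H2-D1, H2-K1 and Tapbp were higher, and Psmb9, Tap1 and Psmb8 lower.

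B2m was at 5358 and 5954 CPM in macrophages, above all cDC sums, with a log2 fold change of 0.65 (SE 0.10, edgeR adjusted p = 1.62e-05). H2-D1 was at 3369.7 and 3747, with 0.50 (SE 0.08, edgeR adjusted p = 4.81e-05), and H2-K1 at 1676 and 1934, with 0.36 (SE 0.10, edgeR adjusted p = 0.00399). Tapbp, which works next to them, was higher by 0.36 (SE 0.09, edgeR adjusted p = 0.0028). Against cDC1s alone Tapbp did not pass (-0.0099, edgeR adjusted p = 0.953). H2-K1 did not pass against CLEC10A cDC2s alone (0.22, edgeR adjusted p = 0.159). Of the lower genes, Psmb9 was at 113 and 129, below all 6 cDC sums, a log2 fold change of -0.83 (SE 0.11, edgeR adjusted p = 2.14e-06). Tap1 was at 111 and 153, where the second sample overlapped the lowest cDC2 sums, and Psmb8 was at 225 and 229, below all cDC sums. Their log2 fold changes were -0.66 (SE 0.13, edgeR adjusted p = 0.000254) and -0.50 (SE 0.10, edgeR adjusted p = 0.000277). Against single classes, Psmb8 differed by -1.18 from cDC1s (edgeR adjusted p = 6.00e-08). It did not pass against DCIR2 (-0.11, edgeR adjusted p = 0.481) or CLEC10A cDC2s (-0.21, edgeR adjusted p = 0.159). Tap1 passed against cDC1s (-1.35) and CLEC10A cDC2s (-0.41, edgeR adjusted p = 0.0344) but not DCIR2 cDC2s (-0.20, edgeR adjusted p = 0.287). Tap2 differed by -0.23, Nlrc5 by -0.064 and Erap1 by 0.11, and none of these passed, although Tap2 was lower with scaling by total UMIs (-0.30). From cDC1s alone Tap2 differed by -0.99 (edgeR adjusted p = 3.23e-06) and Nlrc5 by -0.67 (edgeR adjusted p = 0.00946). Neither gene passed against a cDC2 class alone. The erythroid genes Hbb-bs, Hba-a1 and Alas2 summed to 2536 and 1945 CPM in macrophages and to at most 83.1 in the other classes; all 3 were detected there, and their part in these differences was not tested.

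The rest of the pathway had 20 of 50 genes higher and 13 lower in macrophages. Of the loading complex and chaperone genes 5 of 6 were higher, among them Canx, the chaperone calnexin, by 1.21 (SE 0.09, edgeR adjusted p = 5.33e-10) and Pdia3 by 0.90 (SE 0.09, edgeR adjusted p = 7.54e-08). Lap3 was higher by 3.63, Mr1, which presents vitamin metabolites, by 3.82 and Cd1d1 by 2.00. Ubd, a ubiquitin-like tag for the proteasome, was at 118 and 149 CPM in macrophages and at most 0.407 in every cDC sum. Psmb10 was higher by 0.57 (SE 0.10, edgeR adjusted p = 0.000104), the opposite direction to Psmb8 and Psmb9. Ciita differed by -3.15, H2-Q6 by -2.01, H2-Q7 by -1.68 and Rfx5, which binds the X box, by -1.41.

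The next pair of cells was macrophages with the Siglec1 mark, named marginal metallophilic macrophages (MMMs) after the study's marker, and Langerin+ cDC1s. MMM is a name of the rule here, since no other marker was used to tell these cells from other macrophages. The 8 marker genes that were highest in the macrophage class held Spic, Slc40a1, Hmox1, Cd5l and Adgre1, which are known from red pulp macrophages. Whether the cells called MMMs are marginal metallophilic or red pulp macrophages was not tested. Siglec1+ and Siglec1- macrophages differed in 0.119% of 10111 genes, and the place of the cells in the spleen was not tested. MMMs were taken as macrophages with at least 1 Siglec1 UMI (129 and 73 cells) and Langerin+ cDC1s as cDC1s with at least 1 Cd207 UMI (137 and 154 cells). In MMMs 2 genes, B2m and H2-K1, were higher and 5, Psmb8, Psmb9, Tap1, Tap2 and Nlrc5, were lower, beside 29.1% and 26.8% of 10773 genes tested.

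Psmb9 was at 92.7 and 113 CPM in MMMs and 363 and 372 in Langerin+ cDC1s, a log2 difference of -1.85 (SE 0.11, edgeR adjusted p = 1.64e-07). Tap1 was at 86.5 and 123 against 305 and 335, with -1.63 (SE 0.15, edgeR adjusted p = 3.28e-06). Psmb8 was at 200.2 and 192 against 441 and 458, with -1.20 (SE 0.09, edgeR adjusted p = 1.11e-06). No sample of one group reached the other for these genes. Tap2 differed by -1.10 (SE 0.13, edgeR adjusted p = 2.76e-05) and Nlrc5 by -0.64 (SE 0.13, edgeR adjusted p = 0.00188), and the Nlrc5 value ranged from -0.40 without the first sample to -0.86 without the second and was not called with cells thinned to 2000 UMIs. In the other direction B2m was at 4597 and 5148 in MMMs and 2779.8 and 3079 in Langerin+ cDC1s, with 0.73 (SE 0.09, edgeR adjusted p = 2.99e-05). H2-K1 was higher by 0.25 (SE 0.09, edgeR adjusted p = 0.0432), a call held in only 4 of 9 alternative settings. H2-D1 differed by 0.13, Tapbp by -0.14 and Erap1 by -0.038, and of these only Tapbp passed in another setting, thinned to 2000 UMIs (-0.42).

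**Figure D3:**
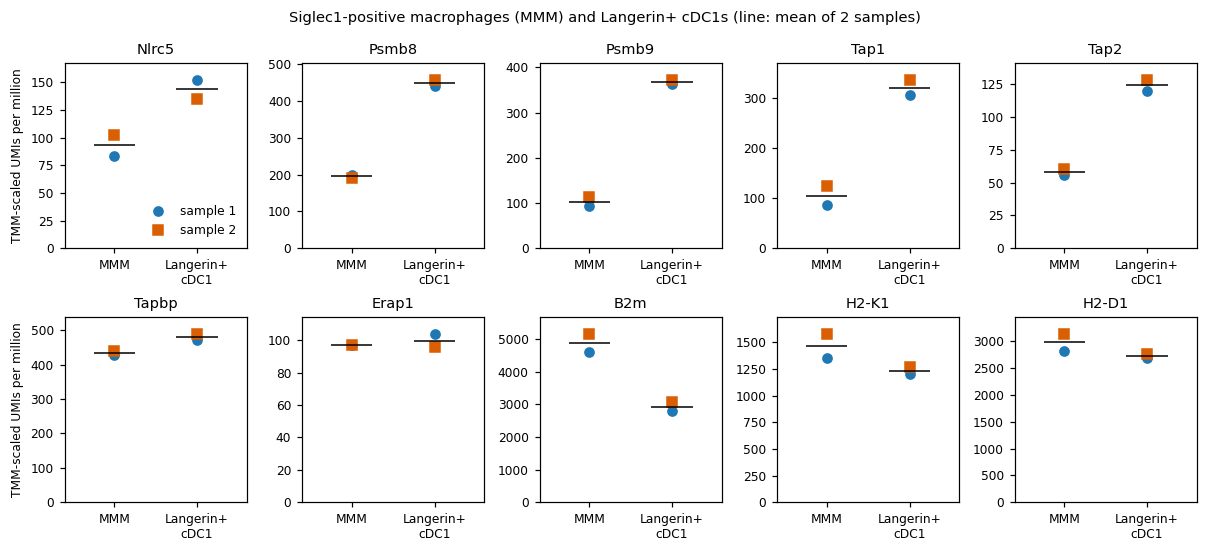
Level of the 10 genes (vertical axis, TMM-scaled CPM, from 0) in MMMs, by the rule Siglec1+ macrophages, and in Langerin+ cDC1s. Points are the 2 samples and lines their means. Psmb8, Psmb9, Tap1, Tap2 and Nlrc5 are lower in MMMs and B2m is higher, while both cell types overlap for Erap1.

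MMMs had 17 of the 49 other pathway genes above and 17 below Langerin+ cDC1s. Among the higher were Ubd, Mr1 at 4.64, H2-T24 at 3.78 and Lap3 at 2.56, and among the lower Ciita at -3.50, H2-Q6 at -3.29, H2-Q7 at -3.15 and Irf8 at -2.47.

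Cells with and without each mark were then compared within their own type. Langerin+ and Langerin- cDC1s differed in H2-D1, at 2672 and 2733 against 2236 and 2325 CPM, a log2 difference of 0.24 (SE 0.04, edgeR adjusted p = 0.0287). Of all 11607 genes 0.422% were higher and 0.379% lower. When the fit held the sample as a block, 3 of the 10 genes were higher, H2-D1, B2m by 0.12 and H2-K1 by 0.14 (edgeR adjusted p = 0.0215 and 0.0282), among 542 genes called in place of 93. Scaled by total UMIs, none was, with H2-D1 at 0.17. Psmb8 was at 439 and 455 in Langerin+ and 437 and 448 in Langerin- cDC1s, and Nlrc5 at 152 and 134 and 140.1 and 143, with overlapping samples. Median depth was 23588 and 26746 UMIs in Langerin+ and 19206.5 and 20588 in Langerin- cDC1s, and the part of depth in the H2-D1 difference was not tested beyond thinning, where it was 0.26. Between Siglec1+ and Siglec1- macrophages edgeR called none of the 10 genes at an adjusted p, beside 0.119% of 10111 genes, and none had an unadjusted p under 0.05. Their log2 differences ran from -0.23 for Tap1 to 0.09 for Nlrc5. DESeq2 called none either, and neither did blocking on the sample, which gave 150 genes in place of 12. Median depth was 22087 and 22634 UMIs in Siglec1+ and 17724 and 17986.5 in Siglec1- macrophages. A cell with 0 Siglec1 UMIs may still express the gene, so the groups can hold cells of the same kind. The part of depth was not tested beyond thinning, where 0 of the 10 genes were called.

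The cDC2 classes were also set against each other. None of the 10 genes passed between DCIR2 and CLEC10A cDC2s in edgeR, where 5.57% of all genes did, and only H2-D1 had an unadjusted p under 0.05. H2-D1 was at 2099.6 and 2197 in DCIR2 and 2647 and 2799 in CLEC10A cDC2s, without overlap, with a log2 difference of -0.34 (SE 0.11, edgeR adjusted p = 0.0674). The others lay between -0.39 (Nlrc5) and 0.13 (Psmb9). DESeq2 and 3 other settings called 1 of the 10. Blocking on the sample gave 1034 genes in place of 681, and again none of the 10. Of the other pathway genes Irf8 was lower in DCIR2 cDC2s, at -1.90 (SE 0.18, edgeR adjusted p = 1.93e-06), and none was higher.

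Lymphocytes were taken as the mean of B, T and NK cells. Of the 10 genes H2-K1 was higher than in cDCs and 6 were lower, Psmb9, Psmb8, Tap1, Tapbp, B2m and H2-D1, while Tap2, Erap1 and Nlrc5 did not pass, beside 14.5% and 25.1% of all genes. Psmb9 was at 105 and 87.8 CPM in B, 91.6 and 108 in T and 105 and 66.6 in NK cells, all below the cDC sums, with a log2 fold change of -1.17 (SE 0.09, edgeR adjusted p = 3.31e-09). Psmb8 differed by -0.69 (SE 0.08, edgeR adjusted p = 7.06e-07), Tap1 by -0.67 (SE 0.11, edgeR adjusted p = 4.05e-05) and Tapbp by -0.48 (SE 0.07, edgeR adjusted p = 2.57e-05). H2-K1 was at 1705 and 2157 in T, 1858 and 2134 in NK and 1552 and 1249.8 in B cells, with 0.32 (SE 0.07, edgeR adjusted p = 0.00127). B cells alone did not pass for H2-K1 against cDC1s, DCIR2 or CLEC10A cDC2s (edgeR adjusted p = 0.645, 0.827 and 0.393). T cells did not pass against CLEC10A cDC2s (edgeR adjusted p = 0.0545) but did against the other cDCs, and NK cells passed against all 3 cDC classes. Nlrc5 was at 145 and 206 in T cells, 163 and 92.7 in NK and 83.2 and 118 in B cells, and its 0.34 (SE 0.15, edgeR adjusted p = 0.072) passed with the sample as a block, at 0.33 (edgeR adjusted p = 0.0397), and in 5 of the 7 other alternative settings. Tap2 differed by -0.16 and Erap1 by -0.14. B2m, at -0.22 (SE 0.07, edgeR adjusted p = 0.0264), and H2-D1, at -0.20 (SE 0.06, edgeR adjusted p = 0.0136), were lower after TMM but at 0.0074 and 0.023 with scaling by total UMIs, which moved the median of all genes from -0.11 to 0.11 and the split of calls from 1777 higher and 3071 lower to 3004 and 2182. The plasma cell genes Jchain, Mzb1 and Sdc1 summed to 5939 and 1203 in the B cell sums and to at most 37.3 elsewhere, all 3 being detected, and their part was not tested.

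Among the other pathway genes 7 of 50 were higher and 22 lower in lymphocytes. The higher ones were led by Mr1 at 1.91, H2-Q7 at 1.17, H2-Q6 at 1.15 and H2-Q4 at 0.75, the lower ones by H2-M2 at -2.58, Ciita at -2.44, Nfya, a subunit of NF-Y, at -0.88 and Isg15 at -0.86.

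In the sparse pDC class 2 of the 10 genes were lower than in cDCs and none higher, beside 6.28% and 4.82% of all genes. Psmb9 was at 56.0 and 51.6 CPM, from 12 and 16 UMIs, with a log2 fold change of -2.00 (SE 0.22, edgeR adjusted p = 4.02e-06), and Psmb8 at 182 and 199.9, with -0.74 (SE 0.15, edgeR adjusted p = 0.00216). Thinned to 2000 UMIs neither passed. The other 8 log2 differences ran from -0.76 for Tap2 to -0.067 for H2-D1, against a median of -0.20 over all genes, which was 0.03 with scaling by total UMIs, where the split of all calls went from 589 higher and 767 lower to 875 and 374. Of the other pathway genes 4 were higher and 9 lower, among them Irf8 at 1.46, H2-T24 at 1.74, H2-Q7 at 0.91, Nfkb1 at 0.84, Psme2 at -1.26, Irf9 at -1.07 and Psmc1, a proteasome ATPase, at -0.98. Irf8 stood at -2.30 (edgeR adjusted p = 0.00607) among cells that met exactly 1 rule, where the pDCs were 4 and 7 cells. This is the opposite sign, so pDC too is a name of the rule here.

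Interferon is the textbook inducer of this pathway, so cDCs that carried interferon-stimulated Ifit transcripts were compared with cDCs of the same class that did not. Marked cells had at least 2 UMIs over Ifit1, Ifit2, Ifit3 and Ifit3b and the others had 0. There were 39 and 31 marked cDC1s, 129 and 84 DCIR2 cDC2s and 91 and 76 CLEC10A cDC2s. Of the 10 genes 2 were higher in marked cells, Nlrc5 and H2-K1, beside 1.92% of 10985 genes, and none was lower, beside 0.355%.

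Nlrc5 was at 236 and 164 CPM in marked and 148 and 153 in Ifit-negative cDC1s. In DCIR2 cDC2s it was at 109 and 106 against 57.5 and 66.1, and in CLEC10A cDC2s at 112 and 129 against 73.3 and 93.2. Marked cells lay above the others in every class, and the log2 difference was 0.58 (SE 0.10, edgeR adjusted p = 0.00501). It was 0.27 with cells thinned to 2000 UMIs and 0.37 with at least 1 Ifit UMI, neither of which passed. H2-K1 was at 1338 and 1392 in marked and 1168 and 1275 in Ifit-negative cDC1s. Over the 3 classes it differed by 0.18 (SE 0.04, edgeR adjusted p = 0.0448), and only 3 of 9 alternative settings made this call. The other 8 genes ran from 0.010 for Erap1 to 0.29 for Tap1. Of the other pathway genes 6 of 48 were higher, among them Isg15 at 2.36, Stat2 at 0.97 and Irf9 at 0.45, and none was lower.

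The difference with the Ifit mark was then compared between cDC1s and cDC2s. Psmb9 was at 291 and 343 in marked and 375 and 368 in Ifit-negative cDC1s, and at 186 and 185 against 142 and 142 in DCIR2 and 182 and 175 against 133 and 124 in CLEC10A cDC2s. Marked cDC1s were thus the lower and marked cDC2s the higher, without overlap in any class, and the difference of differences was -0.66 (SE 0.13, edgeR adjusted p = 0.043), beside 0.0637% of all genes lower and 0.364% higher. Tapbp at -0.54 (SE 0.11, edgeR adjusted p = 0.0694), Psmb8 at -0.50 (SE 0.12, edgeR adjusted p = 0.122), Tap1 at -0.50 and Tap2 at -0.70 did not pass. Marked cDC1s held a median of 26316 and 29483 UMIs and Ifit-negative cDC1s 19635 and 21380, while the cDC2 medians lay between 10480 and 12376 in all 8 sums. Thinned to 2000 UMIs after marking, the Psmb9 value was -0.53 and did not pass, and only 3 of 9 alternative settings made the call. Its sign was the same in all 9.

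**Figure D4:**
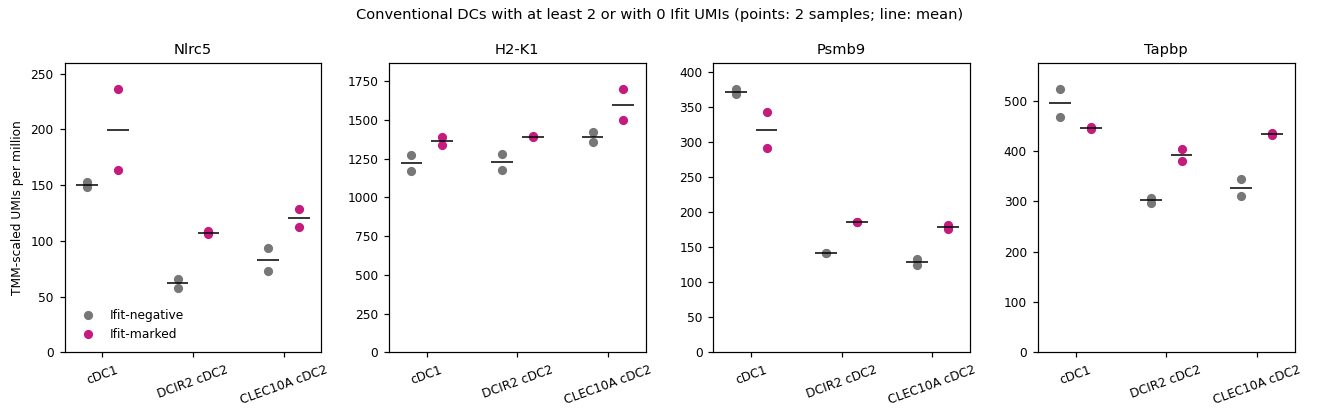
Level of Nlrc5, H2-K1, Psmb9 and Tapbp (vertical axis, TMM-scaled CPM, from 0) in cDC1s, DCIR2 cDC2s and CLEC10A cDC2s with at least 2 (pink) or with 0 (grey) Ifit UMIs; points are the 2 samples and lines the means. Psmb9 and Tapbp are higher in marked cDC2s and lower in marked cDC1s, whereas Nlrc5 is higher in the marked cells of all 3 classes.

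Shares within pairs of genes remove the scaling of a class, since both genes come from the same sums. They are given as mean ± SD of the 2 samples and were not tested, because 2 against 2 samples cannot pass an exact permutation test, and transcripts of unlike length or priming enter them, so only the differences between classes are read. Psmb9 made up 91.3% ± 0.382 of the UMIs of Psmb9 and its constitutive counterpart Psmb6 in cDC1s, 83.6% ± 1.82 in DCIR2 and 84.0% ± 1.41 in CLEC10A cDC2s, 87.1% ± 0.183 in mature DCs and 81.0% ± 3.35 in macrophages. Both cDC1 samples lay above every other class. For Psmb8 with Psmb5 the classes were closer, with 93.0% ± 0.00249 in cDC1s, 93.2% ± 1.21 in mature DCs, 89.5% ± 0.757 in DCIR2 cDC2s and 88.2% ± 1.28 in macrophages. The remaining pair of subunits went the other way: Psmb10 made up 28.2% ± 1.31 of Psmb10 and Psmb7 in cDC1s, below both samples of every other class, against 43.7% ± 0.761 in DCIR2 cDC2s, 47.4% ± 1.56 in CLEC10A cDC2s and 51.5% ± 1.20 in macrophages. Psmb7 itself differed between cDC1s and cDC2s by 0.96 (SE 0.10, edgeR adjusted p = 2.20e-07).

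The heavy chain UMIs were also divided unevenly over the classes. H2-K1 made up 32.4% ± 0.567 of the UMIs of H2-K1 and H2-D1 in cDC1s and 33.6% ± 0.585 in macrophages, 38.6% ± 0.367 in DCIR2 cDC2s and 40.9% ± 0.662 in mature DCs, and 46.9% ± 0.124 in T, 43.6% ± 2.32 in B and 42.8% ± 0.424 in NK cells. The 6 lymphocyte sums lay above all cDC and macrophage sums. The similarity of these genes leaves the absolute share uncertain.

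**Figure D5:**
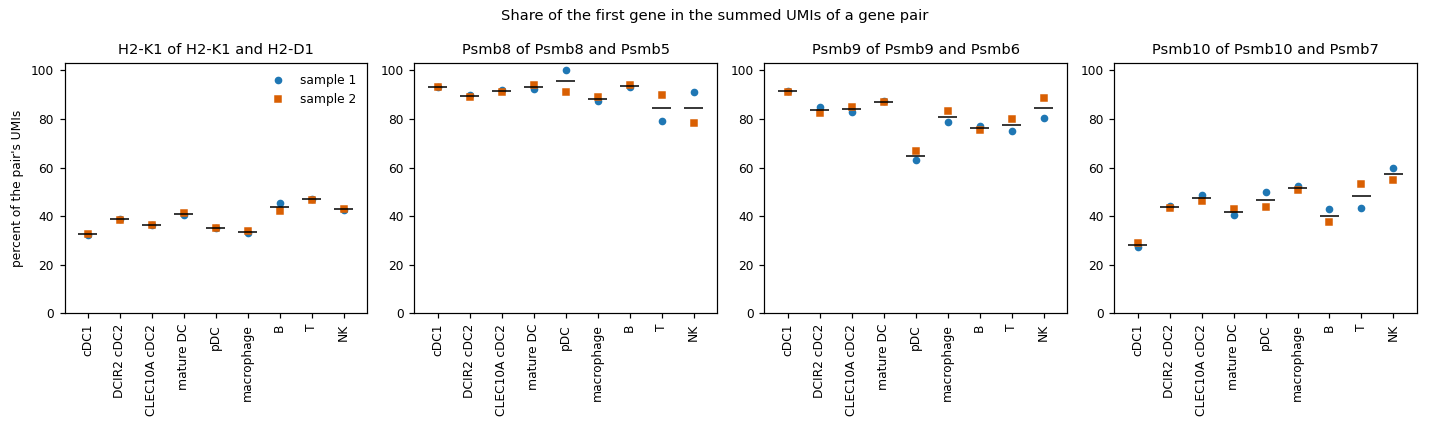
Share of the first gene in the summed UMIs of each of 4 gene pairs (vertical axis, percent) by cell class, with a point per sample and lines at the means. Psmb9 against Psmb6 is highest in cDC1s, Psmb10 against Psmb7 lowest in cDC1s, and H2-K1 against H2-D1 highest in T, B and NK cells.

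The genes whose class profile was most like each of the 10 were taken from 6155 others with at least 50 CPM in their highest class, by Pearson's r of mean log2 levels. The r are descriptions over 9 classes that share libraries and scaling. Psmb9 was most like Snx22 (0.962), Plce1 (0.959), Lsr (0.951), and Psmb8 most like Uqcrfs1 (0.950), Flt1 (0.947), Slc25a20 (0.946). For Tap1 these were Spop (0.971), Htr7 (0.962), Arpin (0.951), and for Tap2 Ttc39a (0.964), Glce (0.954), Ncoa7 (0.947). Among the nearest to Tapbp were Cttnbp2nl (0.936), Fmnl2 (0.935). B2m was followed most closely by Taok1 (0.951), Rap2b (0.945), Stat6 (0.944), and H2-K1 by Bcl2l1 (0.901), Rora (0.898), Pik3r1 (0.896). Among the nearest to H2-D1 were Stx11 (0.968), Nbeal1 (0.927). Nlrc5 had Nipal1 (0.943), Otud5 (0.942), Dnm1l (0.933), and Erap1 had Furin (0.918), Mb21d1 (0.916), Ndufb4 (0.913).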

How the data were processed

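CD11c+ spleen cells of wild-type mice were profiled in 2 samples. The authors made the deposited UMI counts per cell and gene with the BD Rhapsody WTA pipeline (version 1.12.1, GRCm38), which corrects UMIs for sequencing errors; the study then used Seurat 4.3.0.1 in R 4.2.3. The deposited cells were used unfiltered. UMIs were summed per sample and class, and the 18 sums were fitted together with edgeR 4.0.16 in R 4.3.3 (TMM, filterByExpr, quasi-likelihood test, Benjamini-Hochberg adjusted p of 0.05), with separate fits for MMMs, Langerin, Siglec1 and Ifit groups. The procedure was tested on simulated sums in which a small part of the genes changed in a single cell group. That setting is unlike these data, where most genes differed among the classes, so it does not test the scaling between them. Depth was 46953398 and 43137746 UMIs. Alternatives were DESeq2 1.42.0, scaling by total UMIs, no filter, the sample as a block, the study's cell filters, cells meeting exactly 1 rule, doubled thresholds, thinning to 2000 UMIs, stricter or looser marks and leaving out each sample. Same-numbered sums come from 1 sample, which pairs them; their deviations correlated at -0.0458 to 0.138 over 36 class pairs.

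The 10 genes, the pathway list and the tests were chosen with earlier results of these data known. Pathway genes were named if called and among the 4 largest changes in a direction; Pdia3, Psme1, Psme2 in mature DCs, Psmb7, Psmb10, Tapbpl, Irf1 and Canx were named after their values were seen. A few genes that the rules would name are not reported here.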

Additional observations from a re-analysis of the deposited data

Results flagged for a closer look

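The difference of Psmb9 with the Ifit mark was not the same in cDC1s and cDC2s by the test of that difference. Its log2 value was -0.66 (SE 0.13, edgeR adjusted p = 0.043), from a lower level in marked cDC1s and a higher one in marked cDC2s of both samples. Marked cDC1s were 39 and 31 cells and deeper than Ifit-negative cDC1s. With thinning the value was -0.53 (edgeR adjusted p = 0.747). Cells were marked on their full counts before thinning, so the part of depth in which cells were marked was not tested. Over the 9 alternative settings with a test, 3 made the call.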

How the results depend on the processing

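Of 40 called differences of the 10 genes, 29 were called with the same sign in every alternative with a test, among them all 6 in cDC1s and all 7 in macrophages, and 6 of 7 in mature DCs. Over all alternatives, 300 of 331 values of called differences kept direction and call, 29 lost the call and 2 reversed. Of 599 values of the 70 differences that did not pass, 32 became calls, 53 reversed and 514 did neither. The limits are the 2 samples, the few pDCs and Ifit-marked cDC1s, and class rules that doublets can meet. With 1 sample left out there is no test; no called difference then reversed, and Nlrc5 in MMMs against Langerin+ cDC1s (-0.64) was -0.40 without replicate 1 and -0.86 without replicate 2. Where not stated, the cause of a change was not tested.

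Thinning to 2000 UMIs, which tests fewer genes, lowered the genes called from 9444 to 6125 among the 9 classes, 4509 to 2960 in cDC1s, 4148 to 2264 in mature DCs, 6734 to 3825 in macrophages, 4848 to 3039 in lymphocytes, 1356 to 388 in pDCs, 6019 to 2329 in MMMs, 250 to 146 with the Ifit mark, 47 to 0 for its difference between cDC1s and cDC2s and 12 to 1 for Siglec1. Of the 10 genes it then called 9 among the 9 classes, 0 in pDCs, 0 with the Ifit mark and 0 for its difference. The Psmb9 share difference of 7.49 points became 6.19 when thinned and 8.29 in cells that met exactly 1 rule.

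Cells meeting exactly 1 rule gave 1161 genes between the cDC2 classes (681 as reported), 848 in pDCs, 52 for Langerin (93 as reported), 5 for Siglec1 and 0 for the Ifit difference, and of the 10 genes 1 between cDC2s, 4 in pDCs (2 as reported), 1 with the Ifit mark (2 as reported) and 0 for its difference (1 as reported). Doubled thresholds gave 51 genes for Langerin and 28 for the Ifit difference, and 1, 4, 1 and 0 of the 10 in the same comparisons. Without the filter there were 1068 genes between cDC2s, 460 for Langerin, 145 for Siglec1, 616 with the Ifit mark and 244 for its difference, and 1, 1 and 5 of the 10 between cDC2s, with the mark and for its difference. DESeq2 gave 22 genes for Siglec1, 425 with the Ifit mark and 131 for its difference, and 1 of the 10 between cDC2s and 3 for the Ifit difference. The study's cell filters left 2 genes for Siglec1 and 13, with 0 of the 10, for the Ifit difference. At least 2 marker UMIs gave 48 genes for Langerin and 2 for Siglec1, and at least 1 Ifit UMI gave 0 of the 10 for the mark and for its difference. Scaling by total UMIs gave 0 of the 10 for Langerin, 1 with the Ifit mark and 0 for its difference, and moved the Langerin split of calls from 49 higher and 44 lower to 27 and 64; DESeq2 moved that of mature DCs from 2051 and 2097 to 2484 and 1701.

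The sample as a replicate block gave 1034 genes between cDC2s, 542 for Langerin with 3 of the 10, and 150 for Siglec1; it also called Nlrc5 in lymphocytes and changed no other call of the 10 genes.

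Of the 53 reversed log2 values among differences that did not pass, only a part is listed here. Erap1 reversed in MMMs (0.012 with at least 2 marker UMIs, 0.042 by total UMIs) and cDC1s (-0.020 thinned, -0.082 by total UMIs). It also reversed in macrophages (-0.17 thinned) and mature DCs (0.073 with DESeq2, 0.067 with doubled thresholds). In mature DCs Psmb8 reversed too (0.091 with DESeq2, 0.053 in cells that met exactly 1 rule, 0.21 with doubled thresholds). So did Psmb9 there (0.090 with doubled thresholds). Of the called differences, B2m (0.0074) and H2-D1 (0.023) reversed in lymphocytes by total UMIs. Irf8 reversed in pDCs (-2.30 in cells that met exactly 1 rule).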
